A study of Mus musculus with 2 samples.

Results

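A group of lymph node Treg cells was described from 1 droplet single-cell library. They have a high ratio of Tbc1d4, Nrp1, Cd83, Izumo1r and Nrn1 transcripts to those of Bcl2, Satb1, Ccr7, S1pr1, Lef1 and Ly6c1. The cells were chosen by their own UMI counts: each received a score, the log2 ratio of (numerator UMIs + 1) over (denominator UMIs + 1), with the first 5 genes as numerator and the other 6 as denominator. A UMI, or unique molecular identifier, counts each captured transcript once. The 2119 scored lymph node cells were ranked and cut into 3 groups. The 706 cells with the highest scores are called Tbc1d4/Izumo1r-high cells here. The name stands for the score, as only 39.4% of these cells had a UMI of Tbc1d4. They are set against the 707 middle-score cells, and the 706 low-score cells are given for context. The series as a whole holds 3688 cells past the limits on UMIs, genes and mitochondrial share. Scored cells had 1811 UMIs or more, detected 200 genes or more and stayed within 10% mitochondrial UMIs, and 9 cells with B cell transcripts and 85 with mitotic transcripts were set aside.

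The mice were Foxp3Cre-YFP animals on C57BL/6, aged 5 to 8 weeks, in which the Foxp3 locus drives Cre and a yellow fluorescent protein, and the cells of both libraries carry this allele. The lymph node library came from unchallenged lymph node, and the other library from B16 melanoma at day 14. The labels say that cells were sorted but name no gate, and how many animals gave each library is not known here. With 1 library per tissue no difference was tested, and every interval is a 95% interval for counting error only. Since the score genes chose the cells and the other genes were read in the same cells, all differences between the groups are descriptions.

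Treg cells suppress other T cells and are kept in a resting or an activated state by signals through their antigen receptor, costimulatory receptors and the IL-2 receptor. Resting Treg cells recirculate through lymph nodes with the help of Ccr7, S1pr1 and the transcription factor Klf2, whereas activated ones lose these transcripts and gain receptors for tissue entry. Izumo1r encodes folate receptor 4, found on Treg cells and on anergic CD4 T cells. Nrp1 encodes neuropilin-1, a surface protein of thymus-derived Treg cells. Nrn1 encodes neuritin, Cd83 a surface protein of activated lymphocytes, and Tbc1d4 a Rab GTPase-activating protein of glucose transporter traffic. Sh2d1a encodes SAP, the adaptor of SLAM family receptors needed for lasting contact between T and B cells.

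Promoter sequences were looked up for Tbc1d4, Nrp1, Cd83, Izumo1r, Nrn1 and Sh2d1a because these genes mark the cells, and 3 of the 6 matched the RefSeq table for GRCm38.p6, the assembly that mm10 denotes. Each sequence runs 5′ to 3′ on the gene's own strand, from 250 bases before the start site to 50 after it. They are Tbc1d4 at chr14:101609142-101609441 on the minus strand, Izumo1r at chr9:14903718-14904017 on the minus strand and Nrp1 at chr8:128358823-128359122 on the plus strand. Capitals mark matches to the core of NFAT sites, GGAAA, read on both strands.
Tbc1d4: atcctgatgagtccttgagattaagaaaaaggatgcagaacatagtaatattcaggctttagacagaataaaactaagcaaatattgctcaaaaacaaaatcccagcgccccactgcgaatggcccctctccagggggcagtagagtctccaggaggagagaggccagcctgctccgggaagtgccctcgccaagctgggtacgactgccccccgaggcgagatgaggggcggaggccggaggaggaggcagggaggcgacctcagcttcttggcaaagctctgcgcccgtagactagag
Izumo1r: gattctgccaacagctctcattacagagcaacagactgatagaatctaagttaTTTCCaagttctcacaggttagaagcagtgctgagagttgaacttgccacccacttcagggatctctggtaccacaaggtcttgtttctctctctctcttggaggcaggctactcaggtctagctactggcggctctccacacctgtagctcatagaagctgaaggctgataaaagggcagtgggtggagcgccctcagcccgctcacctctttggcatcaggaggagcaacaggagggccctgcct
Nrp1: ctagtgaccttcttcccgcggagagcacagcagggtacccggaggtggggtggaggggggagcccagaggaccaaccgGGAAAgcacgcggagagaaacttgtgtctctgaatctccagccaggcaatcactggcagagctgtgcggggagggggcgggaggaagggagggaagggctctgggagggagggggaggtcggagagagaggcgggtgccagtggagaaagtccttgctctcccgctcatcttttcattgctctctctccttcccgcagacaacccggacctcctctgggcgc
Izumo1r and Nrp1 held 1 match each and Tbc1d4 held 0, while 61.3% of the 32851 promoters in the table held at least 1. The AP-1 motif TGANTCA, the NR4A motif AAAGGTCA and the EGR motif GCGGGGGCG, also read on both strands, were in none of the 3 sequences, and were in 7.81%, 1.51% and 2.91% of all promoters. NFAT, AP-1, NR4A and EGR are factors of the antigen receptor response; a match is a stretch of letters, not a site that was measured.

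The score ran between 0.58 and 4.52 in Tbc1d4/Izumo1r-high cells and between -1.14 and 0.58 in middle-score cells. At the boundary 52 cells shared the score of 0.58, of which 36 with 2500 UMIs or more were inside and 16 with 2475 UMIs or fewer outside. The next scores were 0.62 above and 0.54 below. The groups are thus ranges of a continuous score and not separate clusters. Tbc1d4/Izumo1r-high cells had medians of 8 numerator and 1 denominator UMIs, against 4 and 5 in middle-score cells, and 205 of them, or 29.0%, had no denominator UMI.

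**Figure D1:**
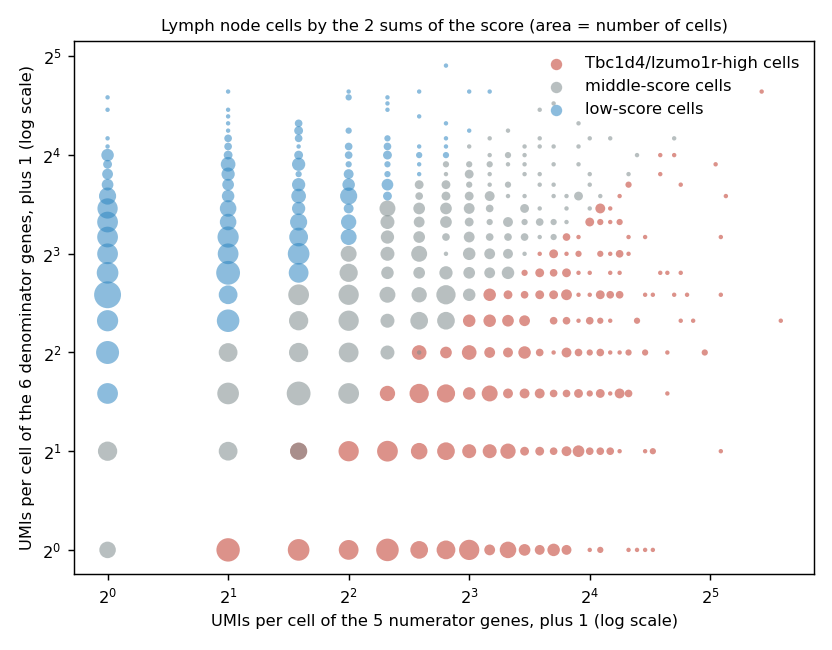
Each bubble stands for the lymph node cells with the same UMI sums, plus 1, of the 5 numerator genes (horizontal, log scale) and the 6 denominator genes (vertical, log scale), with area proportional to the number of cells and color giving the score group. The 706 Tbc1d4/Izumo1r-high cells lie on the lower right side of the 707 middle-score cells and border them without a gap. They extend to the lower left, where 28 of them had 1 numerator and 0 denominator UMIs.

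The groups were of like depth. Tbc1d4/Izumo1r-high cells had a median of 4012 UMIs (1815 to 24945) and 1424 genes, against 4170 UMIs (1816 to 22487) and 1327 genes in middle-score cells. Their summed counts were 3385438 and 3183292 UMIs. Ribosomal protein genes took 38.3% of UMIs in Tbc1d4/Izumo1r-high cells, 43.4% in middle-score cells and 44.8% in low-score cells, and their part in the differences below was not tested. The median log2 ratio over the 5361 genes with 100 or more UMIs outside the score was 0.15, so a ratio of summed levels has to be read against this shift. When each cell was thinned at random to 1811 UMIs and scored again, 572 of the 706 cells (81%) stayed in the top group. The libraries shared 1 cell barcode, which was a Tbc1d4/Izumo1r-high cell.

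Markers of T cells were present throughout, and every scored cell had a UMI of Cd3d, Cd3e or Cd3g. Ikzf2, which encodes the Treg factor Helios, had a UMI in 88.4% of Tbc1d4/Izumo1r-high cells and 72.8% of middle-score cells. Foxp3 had 81 and 76 UMIs, in 10.1% and 9.9% of cells, so most cells of either group had no UMI of it. All 6 markers of conventional CD4 T cells had a UMI in Tbc1d4/Izumo1r-high cells, and the list summed to 151 CPM there and 320.4 CPM in middle-score cells. Igfbp4 (292 against 836 UMIs) and Dapl1 (35 against 87) had fewer UMIs in Tbc1d4/Izumo1r-high cells, whereas Cd40lg (100 against 54), Il2 (47 against 34), Ifng (36 against 9) and Il21 (1 against 0) had more. CPM is UMIs per 1000000 UMIs of the summed group.

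Among markers of other cells, the list for B cells summed to 253 CPM in Tbc1d4/Izumo1r-high cells and 96.8 CPM in middle-score cells, mostly from Cd74, the MHC class II invariant chain, at 780 and 242 UMIs. Of its 8 genes 6 had a UMI in Tbc1d4/Izumo1r-high cells. Cd79a and Ms4a1 were kept low by the choice of cells. Of the genes that the choice did not use, Cd79b had 60 and 57 UMIs, Pax5 1 and 0, and Ebf1 was at 0 in Tbc1d4/Izumo1r-high cells. The list for CD8 T cells summed to 287 and 124 CPM, led by Nkg7 (664 and 132 UMIs) and Ccl5 (250 and 219). Of the CD8 chains, Cd8a was at 0 in both groups and Cd8b1 had 54 and 42 UMIs. Markers of gamma-delta T cells, NK cells, macrophages, dendritic cells, neutrophils and mast cells, stroma, erythroid cells and B16 melanoma each summed to under 5 CPM in both groups, and the endothelial list to 52.9 and 80.7 CPM, all of it Pecam1.

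The 5 numerator genes differed in how much of the score they carried. Izumo1r gave 67.9% of the numerator UMIs of Tbc1d4/Izumo1r-high cells, Nrp1 11.9%, Tbc1d4 7.69%, Cd83 7.5% and Nrn1 4.98%. At full depth 150 cells had a UMI of 1 of the 5 genes, 254 of 2, 194 of 3, 87 of 4 and 21 of all 5. In 131 cells (18.6%) Izumo1r was the only one. With Izumo1r taken out of the score, 579 of the 706 cells (82%) stayed in the top group. Izumo1r then stood at 1040.3 CPM in the new top group and 808 CPM in the new middle group, 1.29-fold higher (1.22 to 1.36).

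The levels of the score genes describe the choice. Izumo1r (mm10 chromosome 9, 14885814 to 14903949, minus strand, GENCODE M21) was at 1282 CPM in Tbc1d4/Izumo1r-high cells, 811 in middle-score cells and 254 in low-score cells. Tbc1d4 (chromosome 14, 101442360 to 101609191, minus strand) was at 145, 60.0 and 23.3 CPM in the same order of groups. Nrp1 (chromosome 8, 128358604 to 128503363, plus strand) was at 225, 113 and 17.4 CPM.
On barcodes with 10 UMIs or fewer, which hold mostly free RNA, Izumo1r was at 875 CPM (82 UMIs), Tbc1d4 at 139 (13 UMIs, 73.8 to 237) and Nrp1 at 74.7 (7 UMIs). The part of free RNA in the levels of middle-score cells was not tested. Cd83 (chromosome 13, 43784775 to 43803132, plus strand) was at 141, 32.7 and 4.88 CPM, and Nrn1 (chromosome 13, 36725361 to 36735131, minus strand) at 93.9, 15.4 and 4.53 CPM. Both set the groups further apart, at 4.33-fold (3.5 to 5.41) and 6.1-fold (4.51 to 8.42) the level of middle-score cells. Of the denominator genes, Ly6c1 was at 9.75 CPM in Tbc1d4/Izumo1r-high cells against 75.7 CPM in middle-score cells, and Satb1, a chromatin organizer, at 26.6 against 127 CPM. The survival gene Bcl2 was at 189 against 526 CPM.

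Shares of cells were compared at 1811 UMIs per cell, which leaves no scored cell out. Izumo1r had a UMI in 84.8% (82 to 87.4) of Tbc1d4/Izumo1r-high cells and 71% (67.5 to 74.3) of middle-score cells. Tbc1d4 had one in 23.5% (20.4 to 26.8) and 9.19% (7.17 to 11.6), and Nrn1 in 10.1% (7.94 to 12.5) and 3.25% (2.07 to 4.84). Before thinning the Tbc1d4 shares were 39.4% and 20.4%. The 9 lymph node cells with B cell transcripts, at a median of 3309 UMIs, had a UMI of Tbc1d4, Nrp1, Izumo1r, Nrn1 and Sh2d1a in none, thinned or not, which with 9 cells allows up to 33.6% by the Clopper-Pearson method. Cd83, which activated B cells also express, had a UMI in 11.1% of these 9 cells thinned and 44.4% before thinning, where its shares were 31.7% of Tbc1d4/Izumo1r-high cells and 10.6% of middle-score cells.

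Sh2d1a (chromosome X, 42502453 to 42529330, plus strand), which the score does not use, was higher in Tbc1d4/Izumo1r-high cells. It had 910 UMIs there, 414 in middle-score cells and 284 in low-score cells, or 269, 130.1 and 98.9 CPM, and stood at 2.07-fold (1.84 to 2.33) the middle-score level. At equal depth a UMI was found in 33.4% (30.0 to 37) of Tbc1d4/Izumo1r-high cells and 18.7% (15.9 to 21.7) of middle-score cells.

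Over all genes the difference ran mostly one way. Of 5361 genes with 100 or more UMIs over both groups, 467 (8.71%) were at least 1.5-fold higher in Tbc1d4/Izumo1r-high cells and 61 (1.14%) at least 1.5-fold lower. With size factors from the median of ratios, which remove the shift of 0.15, the counts were 272 (5.07%) and 118 (2.2%), so higher genes made up 69.7% of those past 1.5-fold, in place of 88.4%. These counts come from the contrast that chose the cells.

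Among 19 gene lists, which share some members, the effector Treg list had the highest median log2 ratio, 1.66. Of its 21 genes with 20 or more UMIs, all 21 were at least 1.5-fold higher in Tbc1d4/Izumo1r-high cells, where 15.9% of all 9091 such genes were higher and 3.26% lower. With size factors 21 of 21 were again higher, and the shares of all genes were 11% higher and 5.49% lower. Maf, a transcription factor of IL-10 production, had 514 UMIs against 124 in middle-score cells (3.9-fold, 3.2 to 4.78). The costimulatory receptor gene Icos had 855 against 258 UMIs (3.12-fold, 2.71 to 3.6), and Itgae, encoding the integrin CD103, 246 against 72 (3.21-fold, 2.46 to 4.24).
Receptors for inflamed tissue belonged to this list. Cxcr3 had 292 against 58 UMIs (4.73-fold, 3.56 to 6.39) and Ccr6 143 against 31 (4.34-fold, 2.93 to 6.62). Ebi3, which encodes a subunit of the inhibitory cytokine IL-35, had 131 against 28 UMIs (4.4-fold, 2.91 to 6.87), spread over 99 of the 706 cells. Prdm1, which encodes Blimp-1, had 32 against 9 UMIs (3.34-fold, 1.56 to 7.96), and its ratio was 1.61 with the score taken at equal depth. Il10, a suppressive cytokine gene, is also among the 22 listed genes but was not counted, as it had under 20 UMIs. It had 11 UMIs in 8 Tbc1d4/Izumo1r-high cells and 0 in either other group, and 3 cells held 54.5% of the 11.

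**Figure D2:**
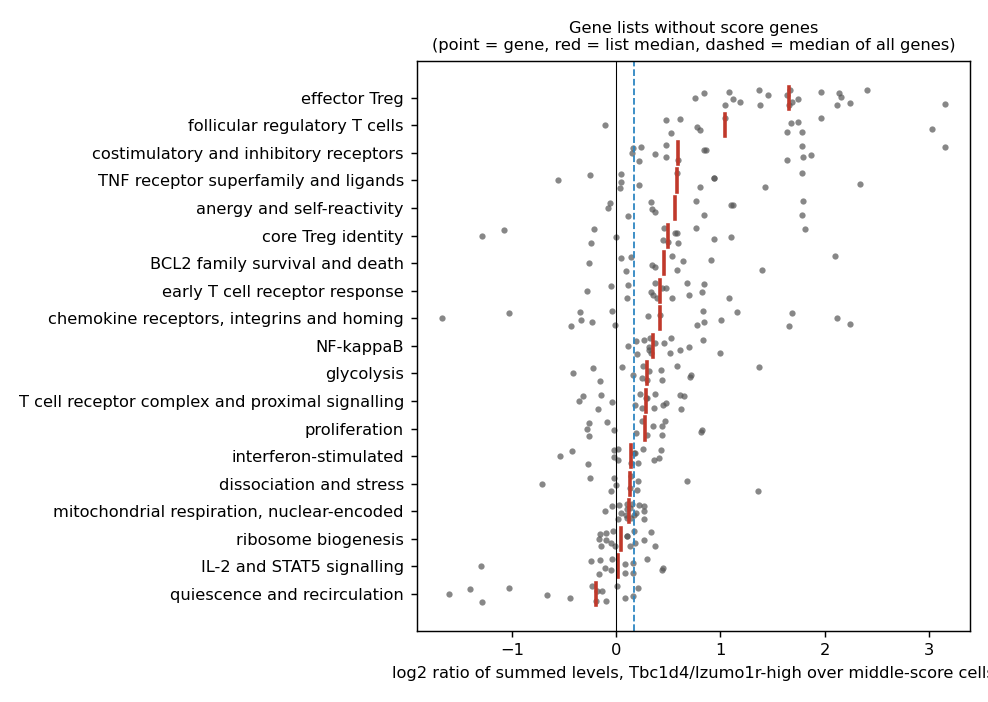
Each point is 1 gene of a list, placed by the log2 ratio of its summed level in Tbc1d4/Izumo1r-high cells over middle-score cells; red bars are list medians and the dashed line is the median of all genes, 0.17. The measured genes of the effector Treg list all lie to the right of that line, with a median of 1.66, and the quiescence list has the lowest median, -0.20.

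The follicular list, genes of T cells that enter B cell follicles, had 10 of 13 measured members at least 1.5-fold higher and none lower (9 with size factors), with a median log2 ratio of 1.05. Of all genes with 20 or more UMIs, 15.9% were higher (11% with size factors). Tox2, a transcription factor of follicular T cells, had 61 against 7 UMIs (8.19-fold, 3.75 to 21.2). Pdcd1, which encodes the inhibitory receptor PD-1, had 307 against 84 (3.44-fold, 2.69 to 4.43), and Il1r2, encoding a decoy receptor for IL-1, 164 against 46 (3.35-fold, 2.4 to 4.76). The defining follicular genes were sparse: Cxcr5, the receptor for entry into follicles, had 42 UMIs against 23 (1.72-fold, 1.01 to 2.99), and Bcl6, the lineage factor, 17 against 5 (3.2-fold, 1.13 to 11.1).

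The early response list of the T cell receptor had a lower median than these, 0.42. Of 16 measured genes, 5 were at least 1.5-fold higher and none lower, and 3 were higher with size factors, where 15.9% and 11% of all genes were higher. The 5 were Irf4 (2.12-fold, 1.38 to 3.32), Nfatc1 (1.79-fold, 1.38 to 2.33), Egr2 (1.77-fold, 1.14 to 2.78), Tnfaip3 and Junb, the last of which is also in the dissociation and stress list. Nr4a1, a reporter gene of receptor signal strength, had 110 against 74 UMIs (1.4-fold, 1.03 to 1.9). Cd69 stood at 1.28-fold (1.06 to 1.55) and Myc at 0.826-fold (0.632 to 1.08). Antigen contact itself was not measured, so the cells are named here by the score and not as antigen-engaged.

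The anergy and self-reactivity list had 6 of 12 measured members higher, the same number with size factors, and none lower, with a median log2 ratio of 0.57 apart from the score genes. The share of all genes that were higher was 15.9% (11% with size factors). Lag3, an inhibitory receptor gene, had 144 against 39 UMIs (3.47-fold, 2.42 to 5.08). Tox, a chromatin factor of persistently stimulated T cells, had 709 against 306 (2.18-fold, 1.9 to 2.5), and Nt5e, encoding the ectoenzyme CD73, 330 against 145 (2.14-fold, 1.76 to 2.62). Itch and Dgka, which restrain receptor signals, stood at 0.947-fold (0.75 to 1.2) and 0.96-fold (0.844 to 1.09). Costimulatory and inhibitory receptors had 8 of 15 higher and none lower (7 with size factors), with a median log2 ratio of 0.59; Cd160 was among the 8, at 3.67-fold (2.22 to 6.33), while Cd28 stood at 1.39-fold (1.25 to 1.55).

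Core Treg genes differed in direction. Of 15 measured, 6 were higher and 2 lower (4 and 2 with size factors), and the median log2 ratio was 0.50. Over all genes 15.9% were higher and 3.26% lower (11% and 5.49% with size factors). Ikzf2 had 3762 UMIs in Tbc1d4/Izumo1r-high cells against 2076 (1.7-fold, 1.61 to 1.8), and Tnfrsf4, encoding OX40, 2244 against 1103 (1.91-fold, 1.78 to 2.06). Itgb8, an integrin subunit that activates TGF-beta, had 86 against 23 (3.52-fold, 2.2 to 5.84).
Ctla4, an inhibitory receptor used in suppression, was at 142 CPM against 93.9 CPM (1.51-fold, 1.3 to 1.75) and Tnfrsf18, encoding GITR, at 451 against 301 CPM (1.5-fold, 1.38 to 1.63); both were under 1.5-fold with size factors. Foxp3 was at 23.9 CPM in either group (1.0-fold, 0.724 to 1.39). Il2ra, the high-affinity IL-2 receptor subunit, was at 147 against 174 CPM (0.844-fold, 0.746 to 0.954).
The 2 lower genes were Gpr83, a receptor gene of Treg cells, at 44 against 92.7 CPM (2.11-fold lower, 1.72 to 2.58), and Gata1 at 13.3 against 32.4 CPM (2.43-fold lower, 1.7 to 3.54). The IL-2 and STAT5 list had 0 of 14 measured genes higher and 1 lower, Socs3, a feedback inhibitor of cytokine receptors, at 19.5 against 48.1 CPM (2.47-fold lower, 1.84 to 3.34). With the score from a random part of the UMIs and the values from the rest, the Socs3 ratio was 0.759, short of 1.5-fold lower.

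TNF receptor superfamily genes and ligands had 7 of 13 higher and none lower (6 and 1 with size factors), with a median log2 ratio of 0.59. Over all genes 15.9% were higher and 3.26% lower (11% and 5.49% with size factors). Tnfrsf9, encoding 4-1BB, had 568 against 155 UMIs (3.45-fold, 2.88 to 4.14), and Tnfrsf1b, encoding TNF receptor 2, 281 against 98 (2.7-fold, 2.13 to 3.43). Tnfsf14, encoding the ligand LIGHT, had 54 against 10 (5.08-fold, 2.56 to 11.2), whereas Cd27 stood at 1.03-fold (0.956 to 1.11). In the NF-kappaB list 4 of 16 were higher and none lower (2 with size factors, near the 11% of all genes), including Nfkb2 at 1.79-fold (1.32 to 2.43) and the inhibitor gene Nfkbia at 1.53-fold (1.4 to 1.67).

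BCL2 family genes differed among themselves. Besides Bcl2, a gene of the score, 5 of 12 measured members were higher and none lower (3 with size factors). Of all genes, 15.9% were higher (11% with size factors). The pro-survival genes Bcl2a1d and Bcl2a1b, close copies whose reads may be shared, had 288 against 63 UMIs (4.3-fold, 3.26 to 5.74) and 761 against 271 (2.64-fold, 2.3 to 3.04). Bbc3, which encodes the death-promoting protein PUMA, had 176 against 88 (1.88-fold, 1.45 to 2.46). Mcl1 stood at 1.04-fold (0.914 to 1.17).

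Quiescence and recirculation genes outside the score were lower in part. Of 15 measured, 5 were at least 1.5-fold lower and 0 higher (6 lower with size factors), with a median log2 ratio of -0.20. The share of all genes that were lower was 3.26% (5.49% with size factors). Klf2, the factor that drives S1pr1, was at 291 CPM against 712 (2.45-fold lower, 2.27 to 2.64). Igfbp4 was at 86.3 against 263 CPM (3.04-fold lower, 2.66 to 3.49). Other members stood near the middle-score level: Tcf7, a factor of resting T cells, was at 1.06-fold (0.937 to 1.2), Id3 at 1.0-fold (0.917 to 1.1) and Foxo1 at 0.935-fold (0.807 to 1.08).

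In the homing list 9 of 19 genes were higher, with and without size factors, and 2 lower (3 with size factors). Over all genes 15.9% were higher and 3.26% lower (11% and 5.49% with size factors). The integrin gene Itgb1 had 611 against 257 UMIs (2.24-fold, 1.93 to 2.6). Ccr9, the gut homing receptor, was among the lower ones, with 5 against 15 UMIs, while Selplg, the selectin ligand, stood at 0.739-fold (0.679 to 0.804).
The receptor complex and its kinases had 3 of 17 higher and none lower (0 higher with size factors), a share near that of all genes, and Cd3e stood at 1.29-fold (1.21 to 1.38). None of 16 ribosome biogenesis genes, 18 respiration genes and 15 interferon-stimulated genes passed 1.5-fold either way, with median log2 ratios of 0.04, 0.12 and 0.14; 1 interferon-stimulated gene was lower with size factors. Glycolysis had 3 of 15 higher (1 with size factors) and proliferation 2 of 14, Mcm6 and Tyms, both with none lower; Top2a, Cdk1 and Birc5, among the 14, were kept low by the choice of cells. In the dissociation and stress list 2 of 11 were higher, Junb and Dusp1 (2.57-fold, 1.88 to 3.55), and 1 lower, Jun (0.611-fold, 0.462 to 0.803), while Fos had 17 and 19 UMIs. The higher shares of the glycolysis, proliferation and dissociation lists were near the 15.9% of all genes that were higher.

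The genes with the highest lower bounds of the ratio, beyond those above, were of several kinds. Nav2, a neuron navigator gene, had 219 UMIs in Tbc1d4/Izumo1r-high cells against 31 in middle-score cells (6.64-fold, 4.55 to 10.0). Ttc39c had 152 against 21 (6.81-fold, 4.3 to 11.3), Slc22a15, a solute carrier gene, 103 against 22 (4.4-fold, 2.76 to 7.33), and Gadd45b, a stress-response gene, 129 against 23 (5.27-fold, 3.37 to 8.62). The highest counts in any single cell were 6, 4, 3 and 9 UMIs in the order named, so no single cell set these ratios.
Others came from few cells. Penk, which encodes the opioid precursor proenkephalin, had 312 against 36 UMIs (8.15-fold, 5.76 to 11.9), and 3 of its 55 positive Tbc1d4/Izumo1r-high cells held 31.7% of the UMIs. Nkg7, a cytotoxic granule gene, had 664 against 132 UMIs (4.73-fold, 3.92 to 5.75), 31.2% of them in 3 cells, and with the score taken at equal depth its ratio was 1.28. Cxcl10, a ligand of Cxcr3, had 140 against 27 UMIs (4.88-fold, 3.21 to 7.66), 34.3% in 3 cells, and a ratio of 1.55 with the score taken at equal depth.
Xcl1, a chemokine that attracts cross-presenting dendritic cells, had 107 against 2 UMIs, but 102 of the 107 were in 1 cell, and without that cell the ratio was 2.35. On the lower side, Rasgrp2, an activator of the GTPase Rap1, was at 47.3 CPM against 108 (2.29-fold lower, 1.9 to 2.78), and Txk, a Tec family kinase, at 33.1 against 77 CPM (2.33-fold lower, 1.85 to 2.94).

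**Figure D3:**
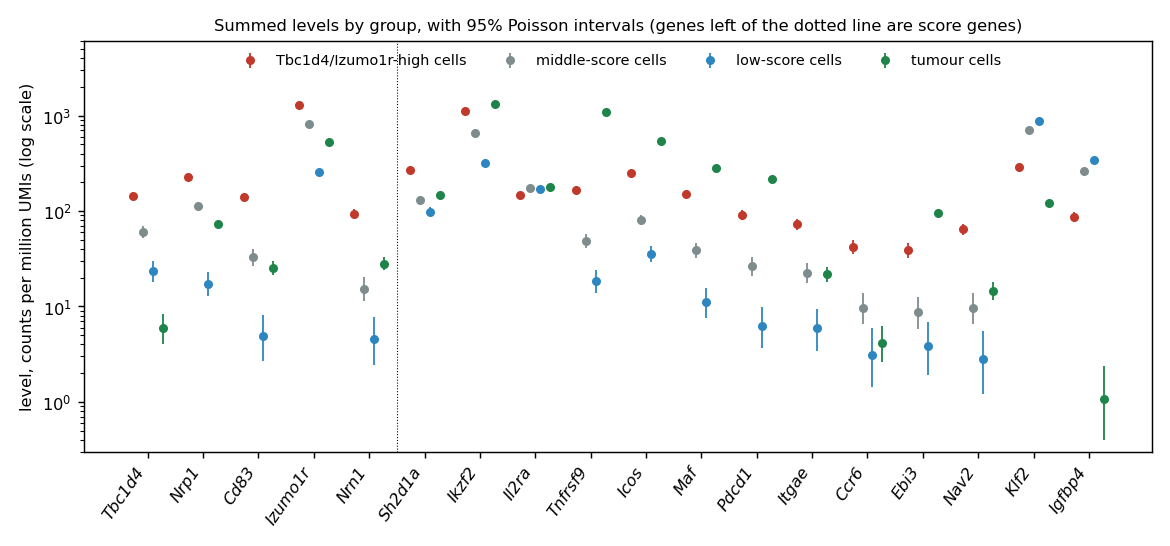
Summed levels in CPM (log scale) of 5 score genes, left of the dotted line, and other genes in Tbc1d4/Izumo1r-high cells, middle-score cells, low-score cells and tumour cells, with 95% Poisson intervals. Tbc1d4, a gene of the score that chose the lymph node groups, stood at 145 CPM in Tbc1d4/Izumo1r-high cells and 5.94 CPM in tumour cells. Tnfrsf9, outside the score, stood at 168 and 1096 CPM.

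Among themselves, the Tbc1d4/Izumo1r-high cells held a subset with S100a4 and S100a6, calcium-binding protein genes of effector T cells. This split was chosen after the values were seen. At equal depth 126 of 706 cells (17.8%, 15.1 to 20.9) had 2 or more UMIs of the pair, 79 had 1 and 501 had none. Among middle-score cells 35 of 707 (4.95%, 3.47 to 6.82) had 2 or more, and among low-score cells 7 of 706 (0.992%). The median full depths of the cells with 2 or more and with none were 4058 and 4012 UMIs.

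Several effector genes were more common in the S100a4/S100a6 subset than in the 501 cells with none. Icos had a UMI in 56.3% and 19.4%, Maf in 47.6% and 13.8%, Itgae in 26.2% and 5.59%, and Id2, an inhibitor of E proteins, in 27.8% and 6.79%. Klrg1, a receptor of terminally differentiated effector cells, had a UMI in 11.9% of the subset and in 1 of the 501.
Izumo1r was less common in the subset, at 69% and 88.4%, and so was Tbc1d4, at 11.1% and 25.5%. Izumo1r, Tbc1d4, Nrp1 and Cd83 are numerator genes of the score that chose these cells, so their shares describe cells already chosen by them. Il2ra had 17 against 158 thinned UMIs (0.428-fold, 0.243 to 0.707 relative to the cells with none), but 134 against 158 CPM at full depth. The shares of Nrp1 (35.7% and 34.1%), Cd83 (12.7% and 17.8%), Tnfrsf9 (16.7% and 18.8%), Pdcd1 (13.5% and 11.8%) and Penk (4.76% and 5.59%) had overlapping intervals in the subset and the cells with none. Klf2 was higher in the subset (1.56-fold, 1.23 to 1.97), and Igfbp4 had 2 against 101 thinned UMIs.

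**Figure D4:**
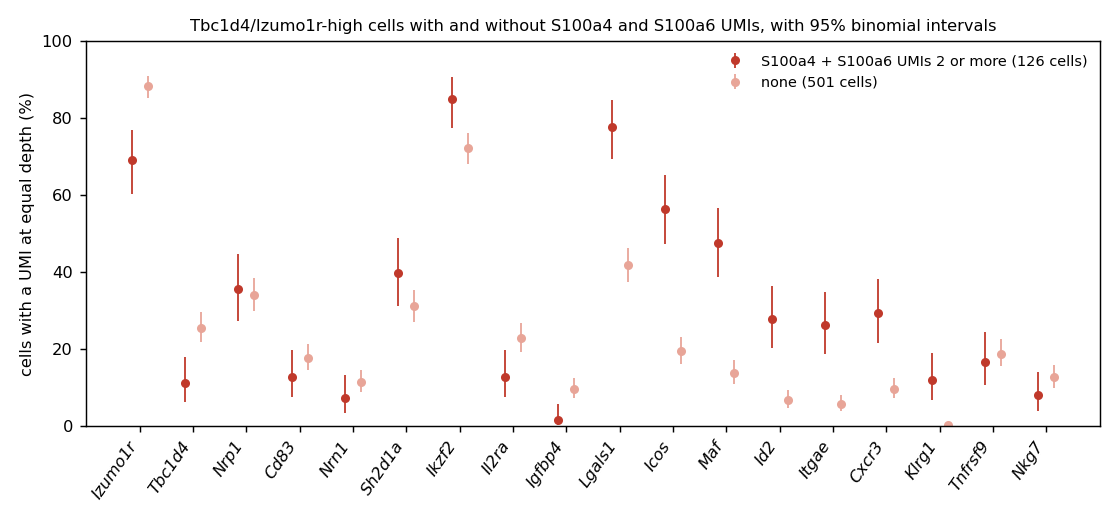
Shares of Tbc1d4/Izumo1r-high cells with a UMI of each gene after thinning to equal depth (vertical, percent), for the 126 cells with 2 or more S100a4 and S100a6 UMIs and the 501 with none; bars are 95% Clopper-Pearson intervals. Icos, Maf, Id2 and Itgae were more common in the S100a4/S100a6 subset, and Izumo1r and Tbc1d4 in the cells with none. Izumo1r, Tbc1d4, Nrp1, Cd83 and Nrn1 are genes of the score that chose the cells.

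Ordering Tbc1d4/Izumo1r-high cells by their score, which is again the value that chose them, set other genes apart. The 353 cells with the highest scores and the 353 others had median depths of 4064 and 3953 UMIs. In thinned counts Penk had 80 against 13 UMIs (6.15-fold, 3.4 to 12.1), Il1r2 47 against 7 (6.71-fold, 3.02 to 17.6) and Nr4a1 27 against 5 (5.4-fold, 2.05 to 18). The shares of cells with a UMI were 7.65% and 2.83% for Penk, 7.93% and 1.7% for Il1r2 and 4.25% and 1.42% for Nr4a1. Penk UMIs came from few cells, as given above. At full depth Penk was at 166 against 19.3 CPM, Il1r2 at 81.1 against 16.4 and Nr4a1 at 44.1 against 21.1, so the Nr4a1 difference was smaller there. Tnfrsf9 had 143 against 69 UMIs (2.07-fold, 1.54 to 2.8) and Sh2d1a 232 against 138 (1.68-fold, 1.36 to 2.09).
Effector genes varied along the score: Cxcr3 had 90 against 45 UMIs (2-fold, 1.38 to 2.93), Maf 141 against 81 (1.74-fold, 1.32 to 2.32) and Itgae 47 against 41 (1.15-fold, 0.738 to 1.79). Il2ra had 74 against 110 (0.673-fold, 0.494 to 0.911) and Klf2 126 against 276 (0.457-fold, 0.367 to 0.566).

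Set beside 774 tumour cells past the same limits, with the tumour's own minimum of 3834 UMIs and with 701 cycling tumour cells set aside, the Tbc1d4/Izumo1r-high cells had higher levels of some genes and lower levels of others. The tissues are 1 library each and differ in depth (median 6274 UMIs in these tumour cells). The lymph node cells were also chosen by score, and the tumour cells were not. The levels are therefore given side by side. Tbc1d4 was at 145 CPM in Tbc1d4/Izumo1r-high cells and 5.94 CPM in tumour cells, Ccr6 at 42.2 and 4.14 CPM, Nav2 at 64.7 and 14.6 CPM and Itgae at 72.7 and 21.8 CPM. Izumo1r was at 1282 and 534 CPM, and Cd83 at 141 and 25.4 CPM. Tbc1d4, Izumo1r and Cd83 are genes of the score. In middle-score and low-score cells Tbc1d4 was at 60.0 and 23.3 CPM, Izumo1r at 811 and 254, and Cd83 at 32.7 and 4.88.
Tnfrsf9 was at 168 CPM in Tbc1d4/Izumo1r-high cells and 1096 in tumour cells, Icos at 253 and 541, Cxcr3 at 86.3 and 347, and Il10 at 3.25 and 87.9. Penk was at 92.2 and 101 CPM, and Ikzf2 at 1111 and 1331. Thinned to 1811 UMIs, 583 of the 706 Tbc1d4/Izumo1r-high cells (82.6%, 79.6 to 85.3) reached the boundary score, and 423 of the 774 tumour cells did (54.7%, 51.1 to 58.2). The share of Tbc1d4/Izumo1r-high cells follows from their choice by this score, and the tumour cells were not so chosen. Of the other lymph node cells, thinned alike, 137 of 707 middle-score cells (19.4%) and 13 of 706 low-score cells (1.84%) reached the boundary score. At full depth 604 of the tumour cells (78%) reached it. Low denominator counts also raise the score. Bcl2 was at 25.03 CPM in tumour cells and 526 in middle-score cells, Ccr7 at 20.35 and 212, and Lef1 at 33.5 and 183. S1pr1, Satb1 and Ly6c1 were also lower in tumour cells. With thinned counts Tbc1d4 had a UMI in 1.16% of tumour cells and 23.5% of Tbc1d4/Izumo1r-high cells, and Cd83 in 4.13% and 16.7%. Izumo1r had one in 51.4% and 84.8%, and Nrp1 and Nrn1 were also less common. What set the tumour share was not tested.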

How the data were processed

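The authors deposited raw UMI counts, 1 unfiltered matrix per library with 27998 genes and 737280 barcodes. Cell Ranger and mm10 are what the submitters' processing notes name; no version is given in the sources used here. Totals were 14000036 UMIs for lymph node and 23618037 for tumour.

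A barcode was taken as a cell at 10% of the 99th percentile of the top 3000 UMI totals (1811 in lymph node, 3834 in tumour). Cells with 2 or more UMIs of Cd79a and Ms4a1 together, or of Mki67, Top2a, Ube2c, Cdk1 and Birc5 together, were set aside. Ties in score went to the cell with more UMIs. No doublet caller was run, so doublets were kept. Counts were summed per group and given as CPM. Ratios carry exact conditional-binomial intervals, levels exact Poisson intervals and shares Clopper-Pearson intervals. Cells are not replicates, so no test was made. Score genes were left out of all counts and list medians.

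Named genes were the score genes, Sh2d1a, a fixed set of Treg genes, the 15 with the most extreme interval bound each way, up to 4 per list and up to 2 per marker list. Bcl6, Ccr9, Cd27, Cd28, Cd3e, Cd69, Cd8a, Cd8b1, Cxcr5, Dgka, Ebf1, Egr2, Fos, Foxo1, Id2, Id3, Ifng, Il1r2, Il2, Il21, Itch, Mcl1, Myc, Nr4a1, Pax5, S100a4, S100a6, Selplg, Tcf7 and Tnfaip3 were named outside this rule, after their values were seen. Some genes that the rule names are not reported here. The cells and lists were chosen with earlier results of these data known. Alternatives varied depth, weighting, score, scaling and filters. The calculation was checked on simulated counts. Python 3.11.15, numpy 2.4.6 and scipy 1.17.1 were used.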

Additional observations from a re-analysis of the deposited data

How the results depend on the processing

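The counts of genes at least 1.5-fold higher and lower in Tbc1d4/Izumo1r-high cells, 467 and 61, stayed within 1.5 times of these values with the mean of single-cell CPM, the score taken at equal depth, a 5% mitochondrial limit, cells with a Cd3 UMI, without the 5% deepest cells and, in 2 alternatives added after seeing the data, without Izumo1r in the score (536 and 56) and without cells with S100a4 and S100a6 (380 and 62). The limit to cells with a Cd3 UMI removed no cell, so it could not change the counts. The counts were 227 and 32 of 2764 genes with thinned cells. They were 229 and 35 of 3343 with the score from a random part of the UMIs and the values from the rest. In both, fewer genes reached 100 UMIs. Median-of-ratios size factors gave 272 and 118, no filter 2399 and 799 of 11505 genes, all other lymph node cells as the comparison 748 and 129, and a 2-fold limit 125 and 20. Over the alternatives the effector Treg median log2 ratio ranged between 1.13 and 2.06, the follicular one between 0.90 and 1.32, the early receptor response one between 0.19 and 0.66 and the quiescence one between -0.35 and -0.13. Single genes moved further. With the score taken at equal depth the ratio was 1.28 for Nkg7, 1.55 for Cxcl10, 1.61 for Prdm1, 1.92 for Lag3, 2.01 for Itgb8, 2.64 for Ebi3, 2.87 for Gadd45b, 3.09 for Tnfsf14, 3.76 for Ttc39c and 3.83 for Tox2. With the score and the values from different UMIs it was 0.759 for Socs3, 2.1 for Slc22a15 and 4.89 for Penk, and without Izumo1r in the score 2.91 for Cxcr3. Their causes were not tested. Depth limits the precision of sparse genes such as Il10, Bcl6 and Prdm1. No paired analysis was possible because the result comes from no test.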

Other observations

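The 85 lymph node cells set aside for mitotic transcripts were deeper than the scored cells, at a median of 13274 UMIs. Thinned to 1811 UMIs, 32 of them (37.6%, 27.4 to 48.8) reached the boundary score of the Tbc1d4/Izumo1r-high cells, and 33 (38.8%) did so at full depth. At equal depth Ikzf2 had a UMI in 75.2% of Tbc1d4/Izumo1r-high cells and 71.8% of the cycling cells, Icos in 27.9% and 38.8%, Tbc1d4 in 23.5% and 8.24%, and Cd83 in 16.7% and 8.24%.

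Cd74 had a UMI at equal depth in 25.6% (22.5 to 29) of Tbc1d4/Izumo1r-high cells and 8.77% (6.79 to 11.1) of middle-score cells, and in 100% of the 9 cells with B cell transcripts, while H2-Ab1 had 3 and 6 UMIs in the first 2 groups. The part of B cell RNA in the Cd74 difference was not tested.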
